A study of Mus musculus with 7 samples.

Results

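Utx-deficient embryonic stem cells (ESCs) were set against mouse embryonic fibroblasts (MEFs) that carry the same Utx label, to see which differences between stem cells and fibroblasts are present without Utx. The comparison is the log2 value of the Utx KO ESC array minus that of the library labelled Utx KO MEF with DOX, and it uses 2 of the 7 arrays of the series. These arrays were picked by their labels and because earlier results of these data showed this MEF library to be the fibroblast-like one of those labelled KO. Of 13562 genes with a row of their own, 9734 lay above a floor of 7.34, the 40th percentile of all values, on at least 1 of both arrays. Each condition has 1 array, so no error, test or p-value can be given and each value describes these libraries.

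ESCs hold their undifferentiated state through a network of transcription factors around Oct4 (Pou5f1), Sox2 and Nanog. Fibroblasts are mesenchymal cells that secrete and remodel collagen-rich matrix and carry a contractile actin cytoskeleton. Utx (Kdm6a) is an X-linked enzyme that removes the repressive methyl marks which Polycomb complexes place on histone H3, and it works within the Mll3 and Mll4 methyltransferase complexes.

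The KO ESCs are line V6.5 with the genotype Utx -/Y. The MEFs of the library labelled KO + DOX are Utx -/Y and belong to a line called V19-OSKM, in which doxycycline (DOX) is meant to switch on Oct4, Sox2, Klf4 and Myc, and their label says that DOX was given. The WT ESCs (V6.5, Utx +/Y) and WT MEFs without DOX (V19-OSKM, Utx +/Y) form a second pair that shares no array with the first, and WT MEFs with DOX are the third MEF library used here. The other arrays are the library labelled KO without DOX and fibroblasts made from Nanog-/- ESCs and transduced with the 4 factors on a lentivirus for 8 days. The labels give no clone, passage, animal or duration of DOX for the Utx samples, and they give an ESC medium for all cells. Levels are on a log2 scale. A gene is counted as higher or lower where the arrays differ by at least 1, which is 2-fold, and the larger value exceeds the floor. Where the smaller value lies under the floor, the fold is given as at least the ratio of the larger value to the floor.

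Upstream sequences of genes from both ends of the comparison show what lies before their start sites. RefSeq promoters (GRCm38.p6) were found for 21 of the 30 genes at both ends. Nanog is shown because its promoter holds a match to a composite Sox-Oct motif, which was searched on both strands. The motif was found in 2 of 32851 promoters of 300 bases (0.00609%), which are overlapping windows of Nanog that hold the same match. Nr0b1 and Postn are shown as genes from opposite ends that each hold the letters TATAAA close to the start, which overlap no other motif there and which 13.6% of the promoters hold on either strand. The 250 bases before each start site are given 5′ to 3′ on the gene's strand, with the match in capitals. They lie at chr6:122707239-122707488 on the plus strand for Nanog, chrX:86191525-86191774 on the plus strand for Nr0b1, and chr3:54360857-54361106 on the plus strand for Postn.
Nanog: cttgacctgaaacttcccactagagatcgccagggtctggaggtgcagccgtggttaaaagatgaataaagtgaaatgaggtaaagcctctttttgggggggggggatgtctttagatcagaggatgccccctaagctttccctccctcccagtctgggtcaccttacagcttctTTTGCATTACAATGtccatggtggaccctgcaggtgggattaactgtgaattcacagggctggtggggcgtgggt
Nr0b1: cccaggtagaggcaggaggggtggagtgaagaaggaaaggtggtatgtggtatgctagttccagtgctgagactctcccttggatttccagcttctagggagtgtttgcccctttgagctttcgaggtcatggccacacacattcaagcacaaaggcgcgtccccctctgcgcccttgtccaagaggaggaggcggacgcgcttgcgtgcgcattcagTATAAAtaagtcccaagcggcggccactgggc
Postn: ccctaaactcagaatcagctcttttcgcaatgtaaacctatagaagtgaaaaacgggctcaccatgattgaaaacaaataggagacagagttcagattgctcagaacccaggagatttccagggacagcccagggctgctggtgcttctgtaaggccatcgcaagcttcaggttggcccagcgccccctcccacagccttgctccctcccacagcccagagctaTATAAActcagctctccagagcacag
The Nanog match lies on the opposite strand with its first base at -75 from the start site. The TATAAA matches begin at -32 in Nr0b1 and at -26 in Postn. The other Postn promoter found, at chr3:54359017-54359266, held no TATAAA match in its 250 bases. A match describes letters and not a bound site.

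The targeted gene was read first. Kdm6a was at 7.97 in KO ESCs, against 7.57 in the library labelled KO + DOX, and at 9.12 in WT ESCs, against 8.22 in WT MEFs without DOX. It was thus lower on both arrays of the KO pair than in the WT library of the same cell type, by 1.15 in ESCs and by 0.65 in MEFs, yet above the floor in both. Kdm6a was at 6.32, under the floor, in the library labelled KO without DOX, against 8.93 in WT MEFs with DOX. A level above the floor checks nothing, since the sources used here do not say which part of the transcript this row reads relative to the deletion. Its paralogue Kdm6b, which removes the same marks, was at 8.98 in KO ESCs, against 9.10 in the library labelled KO + DOX.

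The DOX label of the MEF library went against its values. Pou5f1 was at 5.12 in the library labelled KO + DOX, against 12.59 in WT MEFs with DOX, and at 11.26 in the library labelled KO without DOX, against 8.19 in WT MEFs without DOX. None of the 4 markers fixed for cells that express the factors (Pou5f1, Cdh1, Krt8 and Dsp) was above the floor in the library labelled KO + DOX, whereas 4 of 4 were in the library labelled KO without DOX and in WT MEFs given DOX. All 11 fibroblast markers were above the floor in the library labelled KO + DOX, at 9.44 to 12.72, and 1 of 11 was in KO ESCs. The 7 ESC markers measured were at 9.72 to 13.10 in KO ESCs, and 0 of 7 exceeded the floor in the library labelled KO + DOX. Across 21811 array rows, which share probe effects, its values correlated with those of WT MEFs without DOX at r = 0.972 and with those of WT MEFs with DOX at r = 0.842. WT MEFs without DOX therefore serve as its WT counterpart below, and WT MEFs with DOX as a further comparison.

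Between KO ESCs and the library labelled KO + DOX, 1724 genes were higher (17.7% of those above the floor) and 2129 were lower (21.9%), 39.6% in either direction. The arrays named in the comparison chose these genes, so the counts are a description. The median gene differed by 0.07, and the interquartile range of the differences ran between -0.83 and 0.75. The smaller value lay under the floor for 782 of the higher and 1299 of the lower genes, and a fold counted from a value under the floor has no exact size. With such values raised to the floor, 1323 genes were higher and 1634 lower by 2-fold, 224 higher and 562 lower by 4-fold, and 17 higher and 57 lower by 16-fold. A gene list is described by how many of its measured members were counted in each direction and by the median difference over all its measured members. A member that exceeds the floor on 1 array alone can hardly be counted in the opposite direction, so the direction of such counts is largely fixed by the floor. At the edge of the threshold, Bcas3 (8.86 in KO ESCs, against 7.86 in the library labelled KO + DOX) and Gna13 (10.90, against 9.90) were just inside, and Larp7 (9.77, against 8.77) and Tmeff1 (11.01, against 10.01) just outside. On the lower side B4gat1 (6.92, against 7.92) and Rab3d (6.37, against 7.37) were just inside, and Myo5a (7.90, against 8.90) and Leprot (7.78, against 8.78) just outside.

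**Figure D1:**
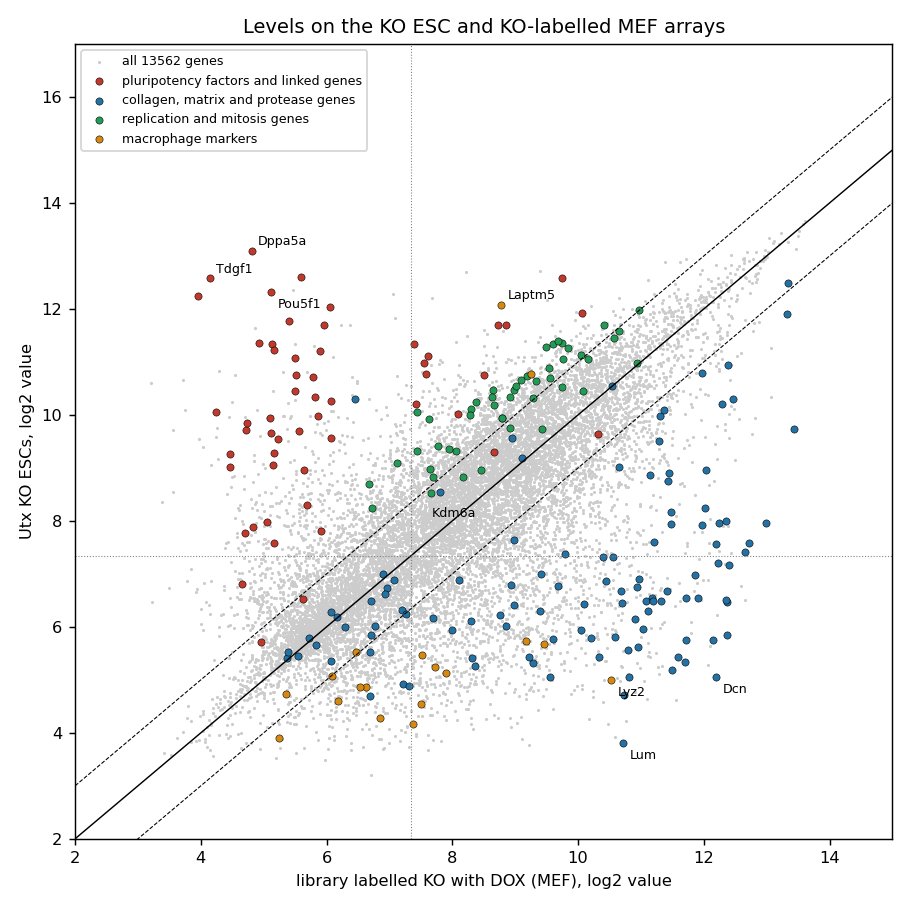
Levels of 13562 genes on the KO ESC array (vertical axis, log2 value) and on the library labelled KO + DOX (horizontal axis, log2 value). Dashed lines mark a 2-fold difference and dotted lines the floor of 7.34. Most pluripotency genes lie to the upper left (Tdgf1 at 12.58, against 4.14), most matrix genes to the lower right (Dcn at 5.05, against 12.20), and replication and mitosis genes just above the diagonal.

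Genes of the pluripotency network stood among those most in favour of KO ESCs, with 8 of the first 15 on the pluripotency lists and 7 on no list. Tdgf1, the Nodal co-receptor Cripto, was at 12.58 in KO ESCs, against 4.14 in the library labelled KO + DOX, a difference of 8.43 (at least 37.7-fold). Dppa5a, an ESC-restricted RNA-binding protein, was at 13.10 in KO ESCs, against 4.81 (at least 54.2-fold). Nr0b1 (Dax1), a nuclear receptor that binds Oct4, was at 12.24, against 3.95 (at least 29.8-fold). All 3 lay under the floor in the fibroblasts, so their order by difference is not fixed. The first 15 genes, with differences of 6.20 to 8.43, also included Pou5f1, Nanog, Esrrb, Dppa2, Sall4, the zinc-finger genes Zfp980 and Zfp640, Bex1, Triml2, Epp13, AU018091 and the noncoding RNA Lncenc1. All 15 lay under the floor in the library labelled KO + DOX.

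Of 19 pluripotency transcription factors measured outside the 4 reprogramming factors, 18 were higher and 0 lower in KO ESCs, with a median difference of 4.52 beside 0.07 over all genes. Of the 19, 14 exceeded the floor in KO ESCs alone, which fixed their direction, and 5 exceeded it on both arrays. The WT pair gave 18 higher, 0 lower and a median of 4.23. Nanog was at 12.59 in KO ESCs, against 5.59 in the library labelled KO + DOX, and at 12.28 in WT ESCs, against 5.43 in WT MEFs without DOX. The other arrays gave Nanog 7.82 in the library labelled KO without DOX, 5.48 in WT MEFs with DOX and 6.56 in the Nanog KO cells, so both ESC arrays stood above all 5 fibroblast arrays. Esrrb, an orphan nuclear receptor of naive cells, was at 11.36 in KO ESCs, against 4.92 (at least 16.3-fold). Tfcp2l1, a naive-state factor downstream of LIF, was at 12.03, against 6.06 (at least 25.8-fold), and Utf1, a chromatin factor of ESCs, at 11.22, against 5.17 (at least 14.8-fold). Klf2 showed a difference of 1.92 in the KO pair and 0.98 in the WT pair. Tcea3 was the one member within 2-fold, at 9.29 in KO ESCs, against 8.66.

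The 4 factors themselves did not behave as a block. Pou5f1 was at 12.32 in KO ESCs, against 5.12 in the library labelled KO + DOX (at least 31.6-fold), and Sox2 at 11.70, against 5.97 (at least 20.5-fold). Klf4, which fibroblasts also express, was at 10.75, against 8.51, a difference of 2.24. Myc was lower in KO ESCs by 0.68, at 9.64, against 10.32, and thus within 2-fold, and its difference in the WT pair was -1.60.

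Other genes linked to pluripotency followed the transcription factors, with 28 of 31 measured higher in KO ESCs (median 3.90) and 27 in the WT pair (median 3.70). Of the 28, 22 exceeded the floor in KO ESCs alone. Fbxo15, an ESC marker often used as a reporter, was at 10.05 in KO ESCs, against 4.25 (at least 6.54-fold). Lefty1 and Lefty2, Nodal antagonists, were under the floor on both arrays of the KO pair, and Lefty2 was at 7.65 in WT ESCs, against 4.73 in WT MEFs without DOX. Genes of the primed state counted 4 higher of 9 measured (median 0.28), and 3 of the 5 above the floor exceeded it in KO ESCs alone. Among these were Otx2 at 7.77, against 4.70 (at least 1.35-fold), and Eomes at 7.63, against 4.91 (at least 1.22-fold). Fgf5, the usual marker of primed epiblast cells, was under the floor on both arrays at 5.97 and 5.77. All 8 germline genes above the floor exceeded it in KO ESCs alone, which fixed their direction, and 7 were higher. The stem cell factor receptor Kit led them at 9.99, against 5.30 (at least 6.26-fold). The other 9 of the 17 measured (median 2.10) were under the floor on both arrays, Ddx4 and Dazl among them.

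The secreted and surface signals of ESCs were also higher. Fgf4, the autocrine FGF of ESCs, was at 11.21 in KO ESCs, against 5.90 in the library labelled KO + DOX (at least 14.7-fold). Nodal was at 10.45, against 5.50 (at least 8.65-fold), and its relative Gdf3 at 11.08, against 5.50 (at least 13.4-fold). The adhesion protein E-cadherin, encoded by Cdh1, was at 10.75, against 5.52 (at least 10.6-fold). With it, 13 of 35 epithelial genes measured were higher (median 0.96 over the 35), and 11 of these exceeded the floor in KO ESCs alone. Spint1, a protease inhibitor, was at 10.81, against 5.69 (at least 11.1-fold), and Cldn4, a claudin, at 9.71, against 5.99 (at least 5.16-fold). The keratin Krt8 was at 8.67 in KO ESCs, against 6.09, and at 10.51 in WT ESCs, against 7.07 in WT MEFs without DOX. The other 22 epithelial genes were under the floor on both arrays of the KO pair. Endothelial genes gave 1 higher (Tek, 8.87, against 6.83) and 1 lower (Erg, 5.17, against 8.02) of 3 above the floor.

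**Figure D2:**
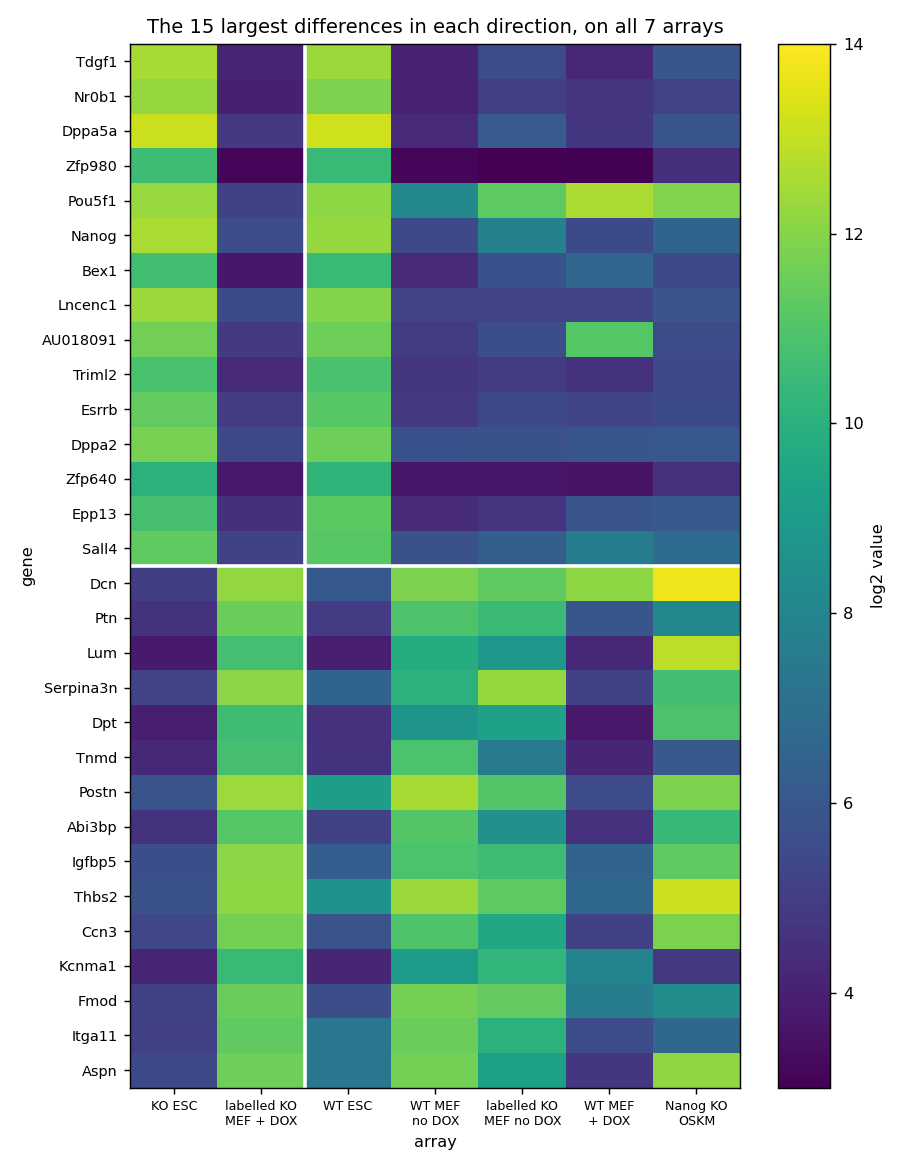
Log2 values of the first 15 genes at each end on all 7 arrays, with the KO pair left of the first white line. Both ESC columns are bright for 15 of 15 upper genes and dark in the library labelled KO + DOX, and Pou5f1 is the upper gene with a fibroblast array above an ESC array (12.59 in WT MEFs with DOX). Of the lower genes, 6 of 15 have both ESC arrays below all 5 fibroblast arrays.

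Families of chromatin regulators held members of both signs. Of 11 enzymes and readers of DNA methylation, 7 were higher and 3 lower. Dnmt3l, the catalytically inactive partner of the de novo methyltransferases, was at 9.85 in KO ESCs, against 4.73 in the library labelled KO + DOX (at least 5.68-fold). Tet1 was at 12.72, against 9.39, and Tet2 at 11.38, against 8.06, whereas Tet3 ran the other way at 6.64, against 8.64 (at least 2.47-fold lower). Of the de novo enzymes, Dnmt3b was at 7.55, against 5.98 (at least 1.16-fold higher), and Dnmt3a at 6.42, against 8.14 (at least 1.74-fold lower). Each exceeded the floor on 1 array alone, which fixed its sign. Their measured differences were 1.58 and -1.72, and in the WT pair 2.25 and -0.83.

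Of 26 Polycomb subunits measured, 9 were higher and 2 lower in KO ESCs (median 0.50), and the WT pair gave 9 and 0 (median 0.56). The KO total was near the 39.6% of all genes above the floor that differed in either direction. The core subunits of the methyltransferase complex that opposes Utx were higher, with Ezh2 at 11.19 in KO ESCs, against 10.03, Eed at 10.81, against 8.44, and Suz12 at 11.03, against 9.30. The accessory subunits Jarid2 and Mtf2, which guide that complex in ESCs, had differences of 2.96 and 2.98. Cbx7, the chromobox protein of the ESC form of the second complex, was at 10.07, against 6.11 (at least 6.64-fold). Bmi1 and Pcgf3 were lower by 1.02 and 1.04, near the threshold. For these subunits the KO and WT differences lay close together, as for Mtf2 (2.98 and 2.99) and Ezh2 (1.16 and 1.38).

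Genes of Utx and the Mll complexes counted 6 higher and 1 lower of 16, with a median of 0.79, and 7 higher and 0 lower in the WT pair. Over all genes above the floor, 17.7% were higher and 21.9% lower in the KO pair, 39.6% in either direction. The total in this list was near that last share. The core subunits shared by the Mll complexes were higher, with Wdr5 at 10.63 in KO ESCs, against 8.23, Dpy30 at 11.49, against 9.63, Rbbp5 at 9.59, against 7.76, and Ash2l at 10.86, against 9.20. Paxip1, which joins Utx in the Mll3 and Mll4 complexes, was higher by 1.41. The Mll4 and Mll3 enzymes themselves, Kmt2d and Kmt2c, differed by 0.56 and 0.91 and did not reach 2-fold. The lower gene was Uty, the Y-linked paralogue of Utx. Among 17 BAF remodelling subunits above the floor, with 19 measured, 3 were higher and 2 lower. The ATPase Smarca2 was at 6.65, against 9.81 (at least 5.53-fold lower), and its alternative Smarca4 was within 2-fold at 10.84, against 10.63.

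RNA-binding proteins gave 5 higher and 3 lower of 13 above the floor. Trim71, a repressor of mRNAs and a target of let-7, was at 10.27 in KO ESCs, against 6.07 (at least 7.60-fold), and Lin28a, which blocks let-7 maturation, at 8.95, against 5.63 (at least 3.06-fold). The splicing regulators Mbnl1 and Mbnl3 were lower by 1.68 and 1.24. The microRNA processing genes Dicer1, Ago2 and Dgcr8 stayed within 2-fold, at differences of 0.08, 0.49 and 0.61.

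Matrix genes stood among those most on the fibroblast side, with 7 of the first 15 on the matrix lists and 5 on no list. Decorin (Dcn), a proteoglycan that binds collagen fibrils, was at 5.05 in KO ESCs, against 12.20 in the library labelled KO + DOX, a difference of -7.15 (at least 29.1-fold lower). Lumican (Lum), of the same family, was at 3.81, against 10.72 (at least 10.4-fold lower). Periostin (Postn), a matricellular protein, was at 5.85, against 12.37 (at least 32.7-fold lower). In bulk RNA, fewer cells of a type and less RNA per cell cannot be told apart. The first 15 genes, with differences of -6.16 to -7.15, also held Ptn, Serpina3n, Dpt, Tnmd, Abi3bp, Igfbp5, Thbs2, Ccn3, Kcnma1, Fmod, Itga11 and Aspn, and all 15 were under the floor in KO ESCs.

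Collagens were lower in 16 of 36 measured members, with 0 higher and a median of -0.95 over the 36. Of the 17 above the floor, 15 exceeded it in the library labelled KO + DOX alone. The fibrillar collagen I chains Col1a1 and Col1a2 were at 7.59 and 6.46 in KO ESCs, against 12.72 and 12.37. Col3a1, collagen III, was at 6.68, against 11.41 (at least 16.8-fold lower), and Col12a1, which decorates fibrils, differed by -5.85 (at least 32.2-fold lower). The basement membrane chains Col4a1 and Col4a2 had smaller differences of -2.15 and -2.56. Col18a1, the exception, differed by 0.75. The other 19 collagens were under the floor on both arrays.

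The enzymes that make and cross-link collagen were lower in 19 of 21 members (median -2.90). Of the 20 above the floor, 8 exceeded it in the library labelled KO + DOX alone and 1 in KO ESCs alone, which fixed their direction. P4ha3, a collagen prolyl hydroxylase subunit, was at 5.06, against 10.81 (at least 11.1-fold lower), and Lox, the cross-linking lysyl oxidase, at 7.96, against 12.99, a difference of -5.03. The collagen chaperone Serpinh1 was at 7.94, against 11.48. Pcolce2, an enhancer of procollagen cleavage, ran the other way at 10.31 in KO ESCs, against 6.45 in the library labelled KO + DOX (at least 7.83-fold higher), and was within 2-fold in the WT pair at 9.56, against 8.97.

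Matrix glycoproteins counted 26 lower and 0 higher of 28 (median -4.02), and small leucine-rich proteoglycans 8 lower of 8 (median -6.08). Of these, 17 of the 28 and 7 of the 8 exceeded the floor in the library labelled KO + DOX alone, which fixed their direction. Thbs2, an anti-angiogenic thrombospondin, was at 5.75 in KO ESCs, against 12.15 (at least 28.0-fold lower), and fibrillin-2 (Fbn2) at 5.76, against 11.72 (at least 20.8-fold lower). Fibronectin (Fn1) stayed within 2-fold at 12.49, against 13.33, and so did the basement membrane protein Nid2 at 10.54 on both arrays. Proteases and their inhibitors gave 14 lower and 0 higher of 18 (median -3.38). Of the 16 above the floor, 9 exceeded it in the library labelled KO + DOX alone, which fixed their direction. The gelatinase Mmp2 was at 7.17, against 12.39 (at least 33.2-fold lower), and Timp2, its inhibitor and cofactor, at 7.56, against 12.19.

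Contractile and cytoskeletal genes were lower in 19 of 21 members, with a median of -2.61. Smooth muscle actins showed it, Actg2 at 6.83 in KO ESCs, against 11.89 (at least 23.4-fold lower), and Acta2 at 9.94, against 12.82. Vimentin (Vim), the mesenchymal intermediate filament, was at 11.27, against 13.08. Of the 21 members, 5 exceeded the floor in the library labelled KO + DOX alone, which fixed their direction. The caveola genes were lower in 6 of 6 (median -4.67), with the coat protein Cav1 at 6.56, against 11.92 (at least 23.9-fold lower) and Cavin1 at 7.74, against 10.98. Of the 6 caveola genes, 5 exceeded the floor in the library labelled KO + DOX alone, which fixed their direction.

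Mesenchymal transcription factors were lower in 21 of 28 measured members (median -2.83), of which 17 exceeded the floor in the library labelled KO + DOX alone. Prrx1, a homeobox factor of limb and skin mesenchyme, was at 5.88 in KO ESCs, against 11.80, and Osr1 at 5.23, against 10.98 (at least 12.5-fold lower). Twist1, Snai2 and Zeb2, which repress E-cadherin, had differences of -2.90, -4.01 and -4.13, and Zeb1 one of -1.29. Fibroblast surface proteins counted 21 lower and 1 higher of 25 (median -4.36). Of the 25, 19 exceeded the floor in the library labelled KO + DOX alone, which fixed their direction. The PDGF receptors Pdgfra and Pdgfrb were at 5.80 and 6.71, against 11.00 and 11.46, and cadherin-11 (Cdh11) differed by -6.16 (at least 39.9-fold lower). The higher one was Eng, a TGF-beta co-receptor, at 10.54, against 9.52. Of 27 Hox genes measured (median -0.85), 7 were lower and 2 higher, and 17 were under the floor on both arrays. Of the 10 above it, 8 exceeded it in the library labelled KO + DOX alone and 2 in KO ESCs alone, which fixed their direction. Hoxa5 was at 4.75, against 7.85 (at least 1.43-fold lower). The posterior genes Hoxc12 and Hoxc13 were at 8.21 and 7.78, against 4.89 and 4.86 (at least 1.83-fold and 1.36-fold higher).

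**Figure D3:**
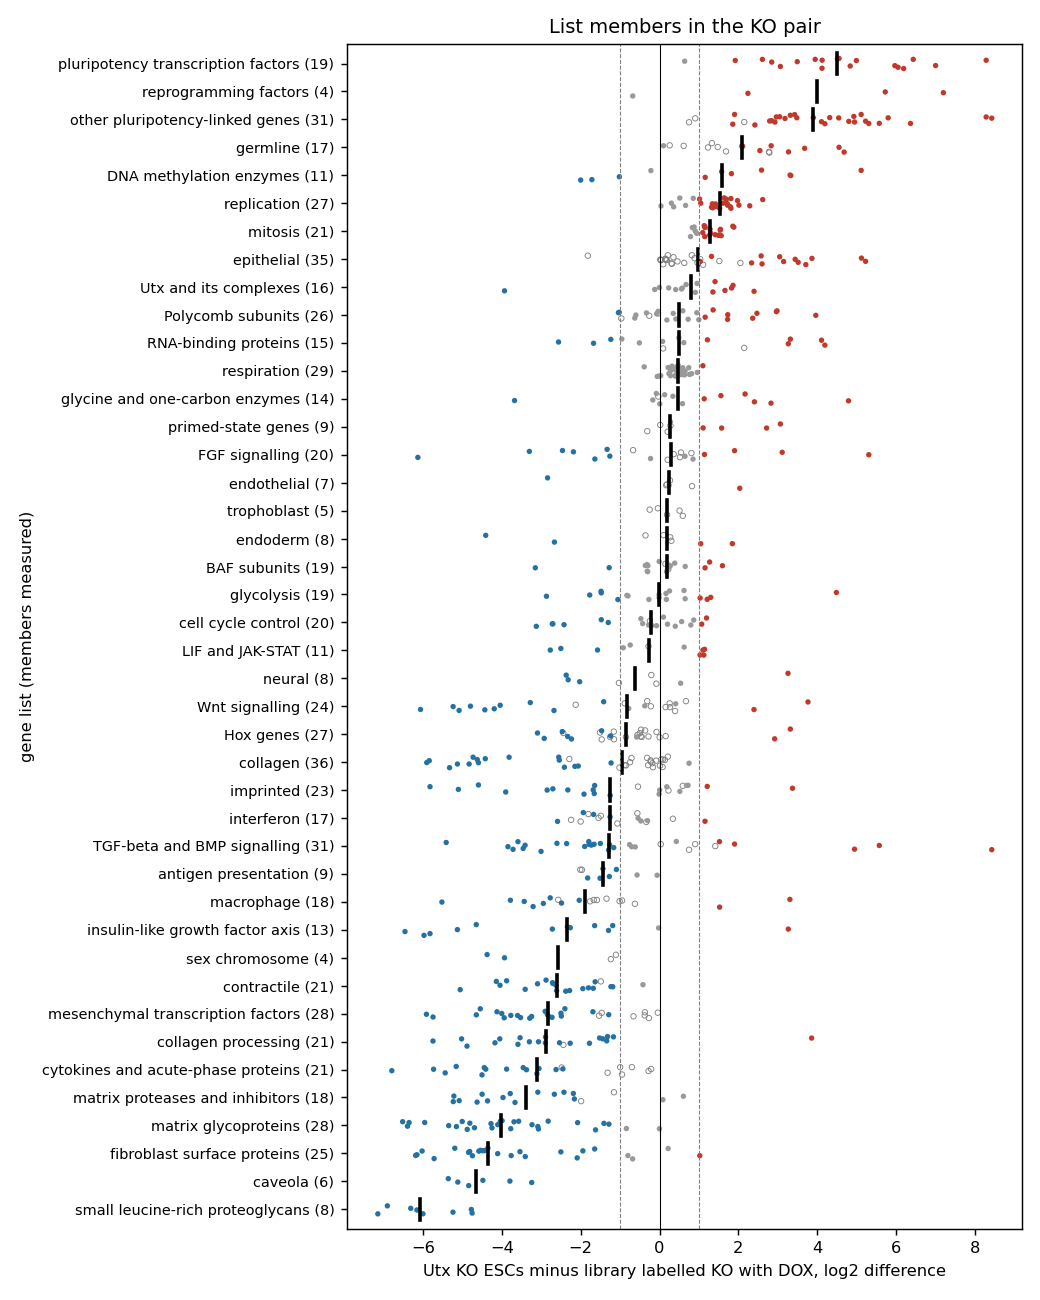
Difference between KO ESCs and the library labelled KO + DOX (horizontal axis, log2) for the measured members of each gene list, 1 point a gene, red for higher, blue for lower, grey for within 2-fold and open for members under the floor on both arrays. Black bars are medians over all measured members, whose number stands in brackets. Medians run between 4.52 for pluripotency transcription factors and -6.08 for small leucine-rich proteoglycans.

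Signalling lists held members with opposite signs. In the TGF-beta and BMP list 18 were lower and 5 higher of 31 (median -1.29). The fibroblast side held the ligands Tgfb3 (5.69, against 11.10) and Inhba (7.30, against 10.77), the receptor Tgfbr2 (6.97, against 10.82) and the targets Id1, Id2 and Id3 (differences of -1.16, -1.66 and -1.73). The ESC side held Tdgf1, Gdf3 and Nodal, with the inhibitor Smad7 (10.08, against 8.17) and Inhbb (9.05, against 7.52). The FGF list gave 7 lower and 4 higher of 20 (median 0.28). Fgf7, a fibroblast-derived growth factor for epithelia, was at 4.77, against 10.91 (at least 11.9-fold lower), while Fgf4 and the ERK-responsive factor Etv5 (11.61, against 8.50) were higher.

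The Wnt list counted 10 lower and 2 higher of 24 (median -0.83), and 9 members were under the floor on both arrays. Of the other 15, 8 exceeded it in the library labelled KO + DOX alone and 2 in KO ESCs alone, which fixed their direction. Lgr5, an R-spondin receptor, was at 4.98 in KO ESCs, against 11.05 (at least 13.1-fold lower), its ligand Rspo3 at 5.35, against 10.44 (at least 8.55-fold lower), and the ligand Wnt5a at 4.82, against 10.07 (at least 6.61-fold lower). Notum, an enzyme that inactivates Wnt ligands, was higher at 9.66, against 5.89, and the receptor Fzd5 at 9.19, against 6.80. The insulin-like growth factor axis gave 11 lower and 1 higher of 13. Of the 13, 6 exceeded the floor in the library labelled KO + DOX alone, which fixed their direction. The ligand Igf2 was at 6.77, against 12.60 (at least 38.2-fold lower), and the binding protein Igfbp4 at 6.23, against 12.21 (at least 29.2-fold lower). The mRNA-binding Igf2bp1 was higher at 11.49, against 8.23. The LIF and JAK-STAT list gave 4 higher and 3 lower of 10 above the floor, with 11 measured. The receptor chain Il6st was lower at 9.83, against 12.34, and Jak2 at 6.07, against 8.84, whereas the targets Socs3 (9.47, against 8.37) and Pim1 (8.61, against 7.49) were higher and Lifr stayed within 2-fold at 9.74, against 9.12.

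Of 23 imprinted genes measured, 12 were lower and 2 higher (median -1.25). Besides Igf2, the lower ones included Dlk1 at 6.89, against 11.99 (at least 25.2-fold lower), Zim1 at 5.18, against 9.78, and the growth inhibitor Cdkn1c at 6.61, against 9.32. Phlda2, a placental growth regulator, was higher at 9.63, against 6.25, and Zdbf2 at 10.32, against 9.11. Grb10 read 11.24 on both arrays.

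DNA replication genes were higher in 21 of 27 members and lower in none, with a median of 1.53, and mitosis genes in 16 of 21 (median 1.27). Pola1, the catalytic subunit of the priming polymerase, was at 10.06 in KO ESCs, against 7.44, and the helicase loader Cdt1 at 10.11, against 8.30. The 6 helicase subunits Mcm2 to Mcm7 had differences between 1.32 and 1.81. Among mitosis genes Bub1b, of the spindle checkpoint, was at 10.24, against 8.38, and Cdk1, within 2-fold, at 11.44, against 10.57. In the WT pair the medians were 1.83 and 1.51, with 22 and 20 members higher. The controllers of the cycle gave 2 higher and 6 lower of 19 above the floor, with 20 measured. Their total was near the 39.6% of all genes above the floor that differed in either direction. The lower controllers were cyclin D2 (Ccnd2, 9.64, against 12.77), Rbl2 and the inhibitors Cdkn2a, Cdkn2b, Cdkn2c and Cdkn1c. These 4 inhibitors exceeded the floor in the library labelled KO + DOX alone, which fixed their direction. Cdkn2a was at 6.86, against 8.34, a difference of -1.48 (at least 2.01-fold lower). In the WT pair both its values were under the floor, at 7.02 in WT ESCs, against 7.01 in WT MEFs without DOX.

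Metabolic lists lay near the middle of the distribution. Their counts stand beside 39.6% of all genes above the floor that differed in either direction. Among 13 glycine and one-carbon enzymes above the floor, with 14 measured, 6 were higher and 1 lower. Of the glycine cleavage subunits, Amt was at 10.29, against 5.49 (at least 7.73-fold), and Gldc at 8.46, against 5.63 (at least 2.17-fold). Mitochondrial Aldh1l2 was lower at 6.88, against 10.56. Glycolysis gave 4 higher and 5 lower of 19 around a median of -0.01. The glucose transporter Slc2a3 was at 12.70, against 8.21, and the lactate exporter Slc16a3 at 8.27, against 11.14, while Pkm, Pgam1 and Hk1 stayed within 0.25. Of 29 respiratory chain genes, 1 was higher (Cox5a, 11.20, against 10.10) and 0 lower, although their median was 0.47.

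Macrophage and immune genes were on the fibroblast side. Of 18 macrophage markers measured, 8 were lower in KO ESCs and 2 higher (median -1.90). The 8 lower ones exceeded the floor in the library labelled KO + DOX alone, which fixed their direction. Lysozyme (Lyz2) had a difference of -5.53 (at least 9.09-fold lower), and the complement chain C1qb was at 5.67, against 9.46 (at least 4.34-fold lower), whereas Laptm5 was at 12.08, against 8.77, and Cd68 at 10.77, against 9.25. Of the 9 macrophage markers fixed by cell type, 1 was above the floor in KO ESCs, 6 in the library labelled KO + DOX, 1 in WT ESCs and 9 in WT MEFs without DOX. Their summed level was 11.00 in KO ESCs, against 11.99 in the library labelled KO + DOX, and 10.61 in WT ESCs, against 13.79 in WT MEFs without DOX, on the log2 scale. The KO ESC sum rested on Cd68, and the other 8 were at 4.28 to 5.73, against 6.09 to 10.52. Their part in the results on immune genes was not tested.

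Cytokines and acute-phase genes counted 14 lower of 21 measured (median -3.11). All 14 exceeded the floor in the library labelled KO + DOX alone, which fixed their direction, and the other 7 were under it on both arrays. Cxcl12, the stromal chemokine, was at 5.50 in KO ESCs, against 11.23 (at least 14.9-fold lower), Serpina3n at 5.27, against 12.07 (at least 26.5-fold lower), and Lcn2 at 4.44, against 9.60 (at least 4.80-fold lower). Interferon-responsive genes gave 4 lower and 1 higher of 8 above the floor, and 9 of the 17 measured (median -1.26) were under it on both arrays. The lower ones, Usp18, Oasl2, Ifi35 and Bst2, exceeded the floor in the library labelled KO + DOX alone, which fixed their direction. They were lower by at least 1.40-fold, 1.19-fold, 1.01-fold and 1.44-fold. Antigen presentation genes were lower in 5 of 7 above the floor, with 9 measured. The peptide transporter Tap1 was at 6.38, against 8.21 (at least 1.83-fold lower). Of the 7, 3 exceeded the floor in the library labelled KO + DOX alone. Beta-2-microglobulin (B2m) was at 11.16, against 12.60.

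Lineage genes other than those of fibroblasts were few. Endoderm genes gave 2 higher (Apoe and Gata4) and 2 lower (Gata6 and Dab2) of 4 above the floor, with 8 measured. Gata6 was at 6.42, against 9.08. Neural genes gave 1 higher (Olig2, 8.77, against 5.51) and 3 lower (Ncam1, Fabp7 and Map2) of 5 above the floor, with 8 measured. None of the 5 trophoblast genes measured was above the floor on either array.

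The WT pair, on arrays of its own, gave 1406 genes higher (14.5%) and 1912 lower (19.8%) in WT ESCs than in WT MEFs without DOX, of 9673 above the floor (34.3% in either direction). Of the 1724 genes higher in the KO pair, 1102 were also higher in the WT pair, which is 63.9% of the KO and 78.4% of the WT genes. Of the 2129 lower genes, 1545 were lower in both, which is 72.6% and 80.8%. Of 9309 genes above the floor in both pairs, 28.4% were 2-fold or more different in the same direction in both. The sign was shared more widely than the threshold, with 1708 of the 1724 higher and 2117 of the 2129 lower genes having the same sign in the WT pair. With values under the floor raised to it, 17 of 17 genes higher by 16-fold in the KO pair were counted as higher in the WT pair, and 55 of 57 (96.5%) on the lower side. Across 10098 genes above the floor in either pair, the differences correlated at r = 0.907 (Spearman 0.916), a description over genes that share probes and RMA across the pairs. WT MEFs without DOX were taken as the counterpart for their likeness to the library labelled KO + DOX, so this value and the shares above are partly set by that choice. With WT MEFs with DOX, r was 0.432.

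**Figure D4:**
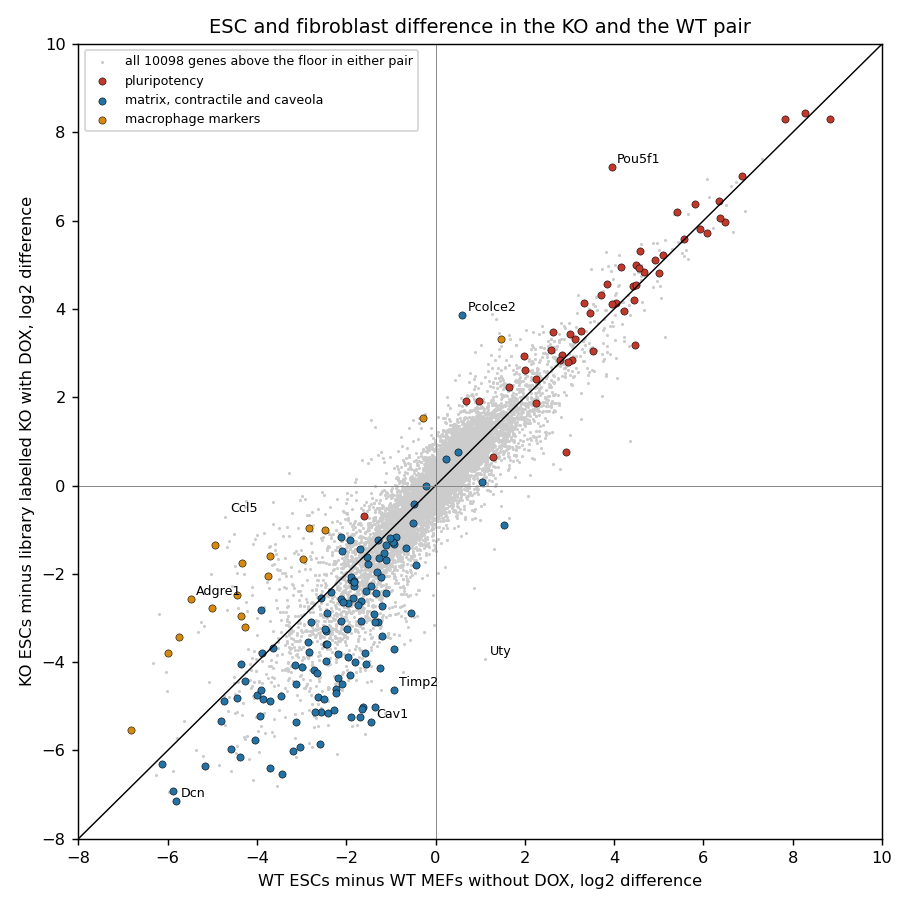
Difference in the KO pair (vertical axis, log2) beside that in the WT pair (horizontal axis, log2) for 10098 genes above the floor in either pair, with the line of equal differences. Most pluripotency genes lie along the line, matrix, contractile and caveola genes mostly below it on the negative side (Cav1 at -5.36 and -1.44), and macrophage markers above it. Uty lies apart at -3.94 and 1.10.

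The pairs parted in size for some genes. The KO difference exceeded the WT difference by 1 or more for 328 genes (3.25% of 10098) and was below it by 1 or more for 632 (6.26%). With values under the floor raised to it, these were 212 (2.10%) and 325 (3.22%). Pluripotency transcription factors were in neither set, with 0 of 19 beyond 1 and a median gap of 0.17. Of the 328 genes, 247 had their larger gap between the MEF libraries and 81 between the ESC libraries. Of the 632 genes, 395 had it between the ESC libraries and 237 between the MEF libraries.

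Matrix genes stood lower in KO ESCs than in WT ESCs. Postn was at 5.85 in KO ESCs, against 9.11 in WT ESCs, and at 12.37 in the library labelled KO + DOX, against 12.56 in WT MEFs without DOX. Cav1 was at 6.56 in KO ESCs, against 10.38 in WT ESCs, Lox at 7.96, against 11.51, and Timp2 at 7.56, against 11.18, with MEF libraries within 0.12 of each other for all 3. Of the caveola genes, 6 of 6 were lower by 2-fold in KO ESCs than in WT ESCs (median -2.25), beside a median of 0.05 between the MEF libraries. Among them Cav2 (4.18, against 6.26) and Cavin2 (4.81, against 6.03) were under the floor in both ESC libraries. Medians between the ESC libraries over all measured members were -1.44 for the small proteoglycans, -1.30 for contractile genes, -1.17 for proteases, -1.01 for fibroblast surface proteins, -0.99 for matrix glycoproteins, -0.18 for collagens and 0.28 for pluripotency transcription factors. The fibroblast markers moved with these lists. Of 11, 1 was above the floor in KO ESCs and 7 were in WT ESCs, at summed levels of 9.85, against 12.11, and Lum and Pdgfra were under the floor in both. Whether the WT ESC library held RNA of other cells was not tested. Medians over all measured members were -4.02 in the KO pair for matrix glycoproteins, beside -2.45 in the WT pair, and -6.08, beside -3.92, for the small proteoglycans. For the 36 collagens they were -0.95, beside -1.04 in the WT pair, and 6 of the 36 were 2-fold lower in KO ESCs than in WT ESCs.

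Macrophage genes parted between the MEF libraries. Of 17 above the floor in either pair, 17 lay 2-fold or more under their WT MEF level in the library labelled KO + DOX (median -1.81). The ESC libraries differed by a median of -0.01. Of the 18 measured, 10 were above the floor in the library labelled KO + DOX, so the gaps of the others have no exact size. Adgre1, which encodes the macrophage antigen F4/80, was at 4.28 in KO ESCs, against 6.85 in the library labelled KO + DOX, and at 4.43 in WT ESCs, against 9.91 in WT MEFs without DOX. The chemokine Ccl5 was at 5.95 in KO ESCs, against 6.66, and at 5.97 in WT ESCs, against 10.69, a gap between the pairs of 4.02. Only the WT MEF value lay above the floor, and with the others raised to it the gap was 3.35. Igsf6, Clec4a1, Ms4a6c, Acod1, Ms4a6d, Clec4e, Ccl3, Serpinb2 and Cybb followed by measured values, at 3.88 to 3.28, and with values raised to the floor their gaps ran between 0.72 and 3.12. On the opposite side Cxcl15 was at 9.21 in the library labelled KO + DOX, against 5.79 in WT MEFs without DOX, and at 3.77 in KO ESCs, against 3.91 in WT ESCs.

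**Figure D5:**
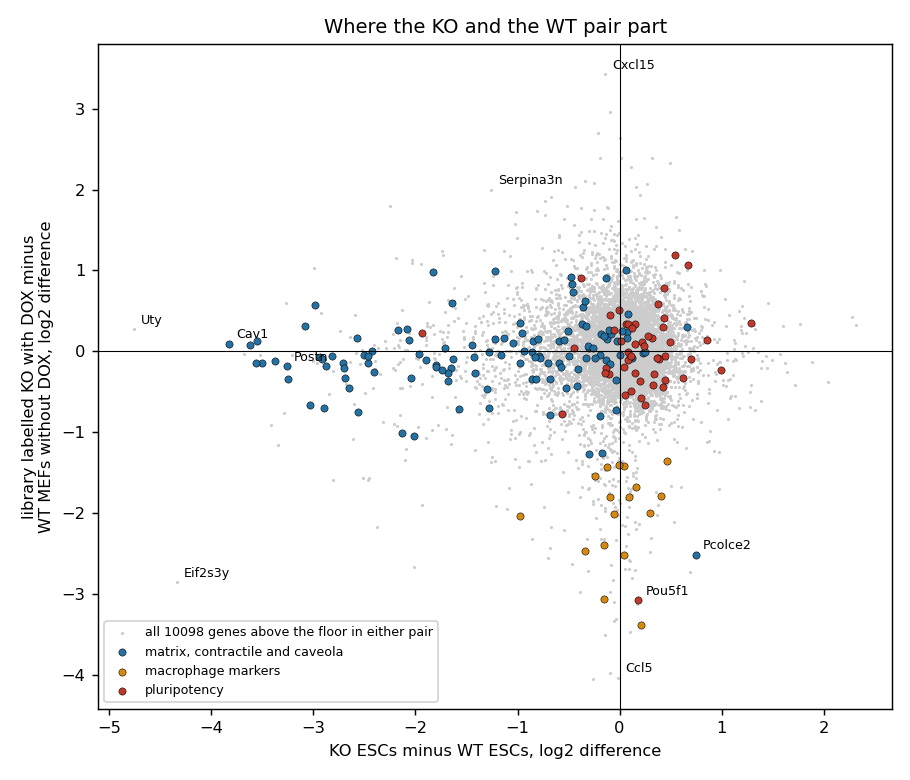
Gap between the ESC libraries (horizontal axis, KO minus WT, log2) and between the MEF libraries (vertical axis, the library labelled KO + DOX minus WT MEFs without DOX, log2) for 10098 genes. Matrix, contractile and caveola genes spread to the left (Cav1 at -3.83), macrophage markers downwards (median -1.81 over the 17 shown), and most pluripotency genes lie near the centre, with Pou5f1 apart at -3.08 between the MEF libraries.

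Y-linked genes differed among the arrays. Uty was at 3.68 in KO ESCs, against 7.61 in the library labelled KO + DOX, and at 8.44 in WT ESCs, against 7.34 in WT MEFs without DOX. Eif2s3y, a Y-linked translation factor gene, was under the floor in KO ESCs and in the library labelled KO + DOX, at 4.19 and 5.42, and at 8.52 in WT ESCs, against 8.28 in WT MEFs without DOX. It was at 4.46 in the library labelled KO without DOX, against 8.56 in WT MEFs with DOX. The labels give a Y chromosome to all of these samples. Xist, the RNA of the inactive X, was at 6.60 in KO ESCs, against 10.98 in the library labelled KO + DOX, and at 8.10 in WT ESCs, against 11.06 in WT MEFs without DOX. The sex-chromosome list thus had 2 members above the floor in the KO pair, both lower.

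Against the WT MEF library that matches by DOX label, the picture was another. WT ESCs had 1288 genes higher (13.6%) and 1583 lower (16.7%) than WT MEFs with DOX, of 9463 above the floor (30.3% in either direction). Of the KO pair's genes, 796 of 1724 were higher in both, which is 46.2% of the KO and 61.8% of these WT genes, and 682 of 2129 were lower in both, which is 32.0% of the KO and 43.1% of these WT genes. Opposite directions were found for 58 of the higher and 119 of the lower genes. Pluripotency transcription factors counted 19 higher of 19 against WT MEFs with DOX (median 3.58). Collagens gave 5 lower and 6 higher of 36 (median 0.07), matrix glycoproteins 2 lower and 13 higher of 28 (median 0.72), and epithelial genes 23 lower and 1 higher of 35 (median -1.75). With values under the floor raised to it, 14 of 17 genes higher by 16-fold in the KO pair (82.4%) were counted as higher here, and 12 of 57 lower ones (21.1%) as lower. Both WT pairs share the WT ESC array.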

How the data were processed

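RNA of 7 mouse samples was hybridised to 1 Affymetrix array each. Per the submitters' processing notes, the authors' log2 values were deposited after RMA in Affymetrix Expression Console, which subtracts background, brings arrays to a common scale and combines the probes of a row. Software versions and build: not given in the sources used here. A labelling kit for 3-prime arrays is named in the labels, whereas the row identifiers belong to a whole-transcript array. The table held 21811 rows, 0 of them with missing values. Medians per array ran between 7.68 and 7.84, with 8.55 for the Nanog KO array. Precision is limited by having 1 array per condition, and depth has no counterpart here.

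Rows were named through the platform annotation. Of them, 14894 had 1 symbol, 925 had several and 5992 were not listed. A gene with several rows (754 of 13562) was read from its brightest row on average. The RefSeq table of GRCm38.p6 held 13528 of these genes, and 0 symbols needed an update. Of 189 counted genes with several rows, 5 had rows of opposite sign, and none of these is named.

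Differences were taken in Python 3.11.15 with pandas 2.3.3 and numpy 2.4.6, without a test. The calling code was checked on a copy of the library labelled KO + DOX with known shifts and no noise added, which tests the code alone. The members and the 42 gene lists were chosen with earlier results of these data known, so no list is independent evidence. Lists held 877 entries, 769 of them measured. Named genes are the first 15 at each end, 10 fixed genes, up to 6 counted members with the largest and 3 members with the smallest difference of each list, families given member by member, the 10 largest gaps between the pairs in each direction, the genes counted in opposite directions and the 2 genes on either side of the threshold. A few further list members were named after their values were seen. RefSeq promoters were found for 77.1% of the lower and 80.0% of the higher genes, under the 80% set as minimum for the lower genes, so a comparison of promoter features was not made. Alternatives were 2 scalings, 2 floors, a stricter threshold, the mean over rows, the library labelled KO without DOX and WT MEFs with DOX.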

Additional observations from a re-analysis of the deposited data

Results flagged for a closer look

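By measured values, the KO and the WT pair differed by 2-fold or more in opposite directions in 4 genes. For each the difference between the pairs was not tested, as each condition has 1 array. Uty was at 3.68 in KO ESCs, against 7.61 in the library labelled KO + DOX, and at 8.44 in WT ESCs, against 7.34 in WT MEFs without DOX, a KO difference lower than the WT difference by 5.03 (-5.03). Aldh1l1, a folate enzyme, was at 6.52 in KO ESCs, against 7.96, and at 7.54 in WT ESCs, against 6.23, a gap of -2.75. Cfp, which encodes the complement protein properdin, was at 8.87 in KO ESCs, against 7.53, and at 7.89 in WT ESCs, against 9.24, a gap of 2.68. Nptx2, a secreted pentraxin, was at 7.95 in KO ESCs, against 6.47, and at 7.82 in WT ESCs, against 9.27, a gap of 2.93. Values under the floor of 7.34 have no exact size, so neither do the gaps of Uty, Aldh1l1 and Nptx2. With such values raised to the floor, their KO differences were under 2-fold, at 1.21-fold, 1.53-fold and 1.52-fold, and the Uty gap was -1.37. Cfp lay above the floor on all arrays of both pairs, with a KO difference of 2.52-fold. These 4 are among 9309 genes above the floor in both pairs.

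Rows that the platform annotation does not list were outside the comparisons above. Of 5992 such rows 3262 were above the floor, 837 were higher in KO ESCs than in the library labelled KO + DOX, 231 were lower, and 32.7% differed in all. In the WT pair 426 were higher and 219 lower, with 342 higher and 118 lower in both pairs. What these rows measure is not known here.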

How the results depend on the processing

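With 1 array per condition no replicate error exists, and depth has no counterpart. No paired analysis was possible because each condition has 1 array. Over the 7 of 8 alternatives that bear on the KO pair, 348 named genes kept their side of the threshold in 2286 of their comparisons. They fell under it in 134 and passed it in 13. Of the named genes counted as higher or lower, 3 reversed. For named genes not so counted, a change of sign was not checked. Against the library labelled KO without DOX, Itgb4 turned to -2.54 (1.32 as reported), Perp to -0.28 (2.34) and Tek to -1.01 (2.04), and the cause was not tested. The medians of 42 lists stayed within 0.5 in 305 comparisons and moved in 30, of which 18 were with that library, where 4 lists had a median of 1 or more (7 as reported). The other 12 were with medians over members above the floor only, an alternative chosen after seeing the data, as for collagens at -4.42 (-0.95 as reported), the Wnt list at -3.28 (-0.83) and epithelial genes at 3.15 (0.96). A threshold of 1.5 on the log2 scale, stricter by construction, left 851 higher genes in the KO pair (1724 as reported), 587 higher in both pairs (1102) and 971 lower in both (1545). With WT MEFs with DOX in place of those without, 682 genes were lower in both pairs (1545), 38.4% of the KO genes were shared (68.7%) and r across genes was 0.432 (0.907), and the cause was not tested. The other 55 counts and shares stayed within 1.5 times. The promoter comparison at a threshold of 2 on the log2 scale was not run, since 77.1% of the lower genes had a promoter, under the minimum of 80% set for it.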
